A study of Mus musculus with 2 samples.

Results

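The genes described here are 10 genes of the E2F and RB network: the activator E2Fs E2f1, E2f2 and E2f3, the repressor E2Fs E2f7 and E2f8, the pocket protein genes Rb1 and Rbl1, and the S-phase cyclin genes Ccne1, Ccne2 and Ccna2. They were chosen by name for their role in the G1/S transition, with earlier results of these data known. All 10 were found by NCBI gene number among the 17215 genes that each table lists. Messenger RNA had been measured by RNA sequencing in MC3T3-E1, a mouse line of osteoblast precursors established from calvaria, in medium with formaldehyde at 300 µM or at 100 µM. Each dose is 1 library of 1 culture, the time of exposure is not stated, and an untreated culture was not analysed here. With no replicates there is no test, and every comparison is one between 2 libraries.

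Entry into S phase is controlled by E2F transcription factors, which bind DNA as dimers with a DP protein. In resting cells pocket proteins (RB, and its relatives p107 and p130) hold E2Fs in a repressive state. Phosphorylation by cyclin-dependent kinases releases E2F1, E2F2 and E2F3, which activate genes of DNA synthesis, among them the genes for cyclin E and cyclin A. E2F7 and E2F8 are themselves induced in S phase, bind DNA without a DP partner or a pocket protein, and repress the same targets again. Formaldehyde forms crosslinks within DNA and between DNA and protein, and the title of the series concerns inhibition of osteoblast proliferation.

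The values are FPKM, which count fragments per kilobase of transcript relative to all mapped fragments of a library, so levels of different genes can be set side by side. The spacing of low values placed the depth at about 19047619 fragments at 300 µM and 18518519 at 100 µM. From it the number of reads behind each value was estimated, with exact 95% intervals that cover counting error only. Of the 8 osteoblast markers looked up, 7 reached 1 FPKM in at least 1 library (Bglap did not). Col1a1, Col1a2 and Spp1 were far above that bound, at 253.43 FPKM or more in each library. Runx2 (3.60 FPKM at 300 µM, 7.99 at 100 µM) and Sp7 (9.47 and 7.21) were lower. Ibsp (1.77 FPKM at 300 µM, 1.83 at 100 µM) and Alpl (1.06 and 0.98) were near the bound. Markers of macrophages and blood, endothelium, fat, epithelium and muscle summed to 28.8 FPKM at 300 µM, against 20.7 at 100 µM. Of the 18 of those 19 markers that are listed, 2 reached 1 FPKM in either library, Lyz2 (26.5 FPKM at 300 µM, 13.2 at 100 µM) and Cd14 (0.94 FPKM at 300 µM, 6.36 at 100 µM), while Adgre1, Kdr, Plin1, Fabp4, Epcam and Myog were at 0 in both. Of the markers between 0 and 1 FPKM the highest were Des (0.46 FPKM at 300 µM, 0.29 at 100 µM) and Csf1r (0.40 FPKM at 300 µM, 0.44 at 100 µM), and Ptprc and Pecam1 were at most 0.11. The part of such cells in the results was not tested. In a culture, fewer cells in a cycle phase and less RNA per cell cannot be told apart.

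Most of the 10 genes were lower at 300 µM, but not all of the network moved one way. The repressors E2f7 and E2f8, the activator E2f3 and the cyclin gene Ccne2 stood at a small part of their level at 100 µM. E2f1 was 1.63 times as high at 300 µM, and the pocket protein genes Rb1 and Rbl1 were close to level. A pseudocount of 1 was added to each FPKM before the log2 ratio of 300 µM over 100 µM was taken, and only genes whose mean reached 1 FPKM were compared. By this measure 9 of the 10 genes were compared, since E2f2 had a mean of 0.63 FPKM. Of these 9, 5 were lower at 300 µM by 2-fold or more and 0 were higher by as much. The same bound was passed by 29.8% of all 10123 compared genes on the lower side and by 6.09% on the higher side, and the median over all of them was -0.30. When ratios were centred on that median gene, 4 of the 9 were lower and 0 higher, against 22.3% lower and 14.5% higher among all genes.

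**Figure D1:**
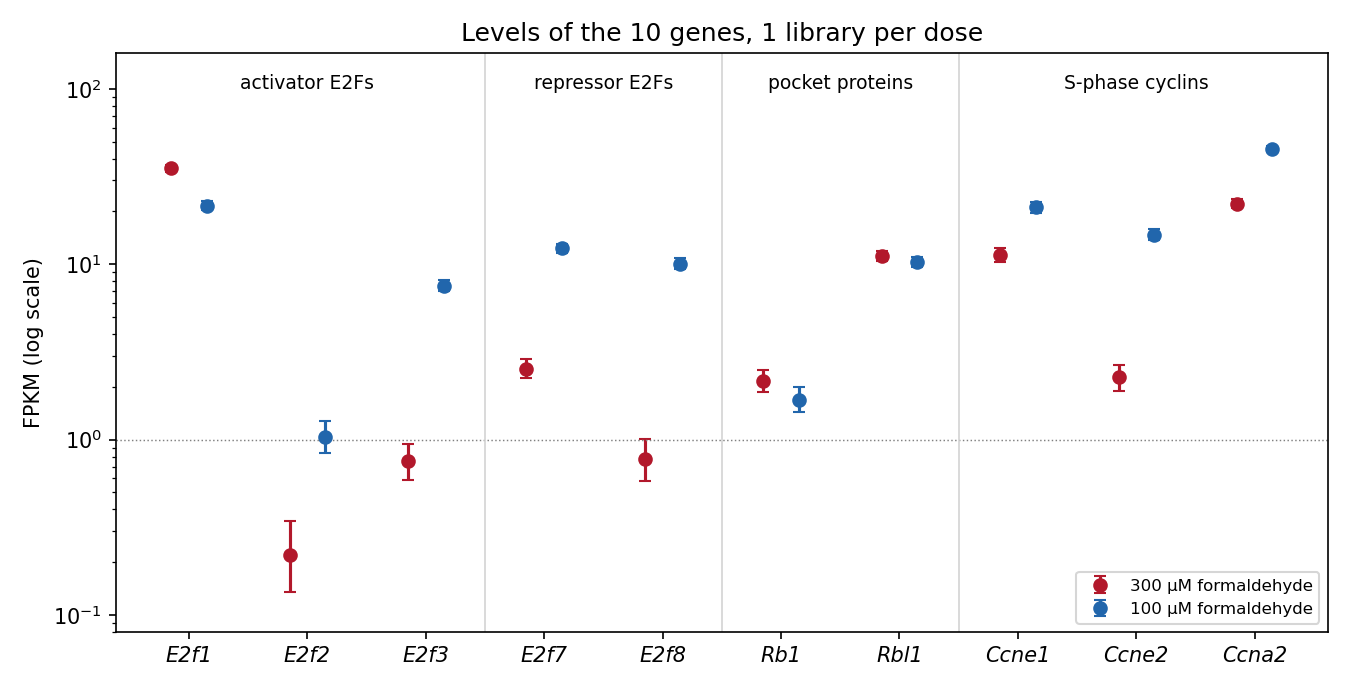
Level of each of the 10 genes in FPKM (log axis) at 300 µM (red, left of each pair) and 100 µM formaldehyde (blue). Points are the deposited values of 1 library per dose and bars are exact 95% Poisson intervals of the estimated reads. The pairs of E2f2, E2f3, E2f7, E2f8 and Ccne2 lie furthest apart, E2f1 is higher at 300 µM, and the bars of Rb1 overlap, as do those of Rbl1.

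Promoter windows were examined because genes of this family are known to be E2F targets themselves. RefSeq windows of 250 bases before to 50 after an annotated start (build GRCm38.p6) were listed for 7 of the 10 genes, and Rb1, Ccne2 and Ccna2 had none listed. The letters TTTCGCGC, TTTGGCGC, TTTCCCGC and TTTGCCGC, common forms of the E2F site, were searched on both strands. They occurred in a window of 4 of the 7 genes, against 2.60% of the 27025 genes with a window and 5.16% of the 8238 compared genes that have one. E2f8, with the lowest log2 ratio of the 10 genes, had none of these letters in its listed window. The 4 windows with them are shown. They belong to E2f3 and E2f7, which were lower at 300 µM by 2-fold or more, to E2f2, which was lower in FPKM but below the filter, and to Rbl1, which stayed near level. Each is written 5′ to 3′ on the strand of the gene, with the matching letters in capitals.
E2f2, chr4:136172024-136172323, plus strand: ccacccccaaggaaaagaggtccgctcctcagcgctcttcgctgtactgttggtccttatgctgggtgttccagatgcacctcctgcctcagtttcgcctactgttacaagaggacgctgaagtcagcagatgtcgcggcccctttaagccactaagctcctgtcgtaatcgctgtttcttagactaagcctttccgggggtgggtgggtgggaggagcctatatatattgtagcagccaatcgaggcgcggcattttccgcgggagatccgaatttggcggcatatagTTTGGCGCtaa
E2f3, chr13:29986014-29986313, minus strand: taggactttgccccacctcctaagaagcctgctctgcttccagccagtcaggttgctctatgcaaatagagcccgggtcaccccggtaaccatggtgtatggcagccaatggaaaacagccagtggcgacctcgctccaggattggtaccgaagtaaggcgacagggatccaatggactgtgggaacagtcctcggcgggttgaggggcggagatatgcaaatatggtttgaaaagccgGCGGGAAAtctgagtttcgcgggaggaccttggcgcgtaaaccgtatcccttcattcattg
E2f7, chr10:110745189-110745488, plus strand: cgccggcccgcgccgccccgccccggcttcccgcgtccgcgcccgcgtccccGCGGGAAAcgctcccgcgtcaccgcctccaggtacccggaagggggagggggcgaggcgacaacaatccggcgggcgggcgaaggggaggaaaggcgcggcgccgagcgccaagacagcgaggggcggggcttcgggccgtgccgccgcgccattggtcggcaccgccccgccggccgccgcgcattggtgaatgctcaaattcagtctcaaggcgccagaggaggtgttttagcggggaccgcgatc
Rbl1, chr2:157204485-157204784, minus strand: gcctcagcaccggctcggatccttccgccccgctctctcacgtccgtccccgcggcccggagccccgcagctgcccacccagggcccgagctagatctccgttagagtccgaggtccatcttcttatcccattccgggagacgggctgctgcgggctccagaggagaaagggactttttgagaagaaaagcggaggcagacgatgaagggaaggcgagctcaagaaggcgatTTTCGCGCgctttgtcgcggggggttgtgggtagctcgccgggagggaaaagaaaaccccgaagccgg

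In the E2f2 window the match TTTGGCGC begins at base 290, so it lies past the annotated start. The E2f3 and E2f7 matches are both GCGGGAAA, the reverse complement of TTTCCCGC, at bases 240 and 53 of their windows. In Rbl1 the match TTTCGCGC begins at base 233, shortly before the start. The letters TTTGAA of the CHR element, which cell cycle repressor complexes are known to bind, were searched on either strand. They were found in windows of E2f2, E2f3 and E2f8, against 20.2% of genes with a window and 14.1% of the compared genes that have one. The E2f3 window that holds them is the one shown above, where they begin at base 228. In E2f2 they lie in the window of another annotated start (chr4:136180532-136180831), and not in the E2f2 window shown above. That other E2f2 window and the one of E2f8 are not shown. E2f1 and Ccne1 had neither set of letters in their single listed window. The E2f1 window may not belong to the main start of the gene, so no lack of these letters at that start is shown. These matches describe the windows only, and binding was not measured.

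The activator E2Fs diverged. E2f1, the founding activator, stood at 35.25 FPKM at 300 µM, against 21.59 at 100 µM, on about 1834 and 1092 reads. Its FPKM ratio of 1.63 had a counting interval of 1.51 to 1.76, and its log2 ratio with the pseudocount was 0.68. It stayed within 2-fold, with log2 ratios of 0.32 to 0.98 over the main setting and 7 alternatives. E2f3, whose gene encodes a pair of isoforms from separate promoters that a gene-level value does not tell apart, stood at 0.75 FPKM at 300 µM, against 7.55 at 100 µM. That is an FPKM ratio of 0.0993 (counting interval 0.0771 to 0.127) and a log2 ratio of -2.29, and 5.68% of the genes compared had a lower one. E2f2, the least abundant of the 10 in both libraries, stood at 0.22 FPKM at 300 µM, against 1.04 at 100 µM, on about 20 and 91 reads. Its FPKM ratio was 0.212, and its counting interval of 0.125 to 0.350 lies below 0.5. The pseudocount brings E2f2 to a log2 ratio of -0.74, so its low level hides much of the difference on that scale.

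The sum of the activators hid this divergence. It was 36.22 FPKM at 300 µM, against 30.18 at 100 µM, of which E2f1 made up 97.3% at 300 µM and 71.5% at 100 µM. The ratio of E2f1 to E2f3 within a library, which does not depend on how the libraries are scaled, was 47.0 at 300 µM and 2.86 at 100 µM. On the log2 scale the ratio was 4.04 higher at 300 µM, and 1.72 higher when a pseudocount of 5 was added to both genes.

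Both repressor E2Fs were lower at 300 µM. E2f7 stood at 2.54 FPKM at 300 µM, against 12.3 at 100 µM, on about 265 and 1247 reads, with a log2 ratio of -1.91. E2f8, which can pair with E2F7, stood at 0.77 FPKM at 300 µM, against 10.07 at 100 µM. Its FPKM ratio of 0.0765 (counting interval 0.0567 to 0.101) was the smallest of the 10 genes, although its interval overlaps that of E2f3, and its log2 ratio was -2.64. E2f8 thus differed more than E2f7, with counting intervals that do not overlap (0.180 to 0.236 for E2f7). Of the 50-base words of E2f8, 10.5% occur in another gene. The gene that shares the most of them is Gm2788, an overlapping transcript on the opposite strand that is not in the tables.

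Set against E2f7 and E2f8 only, the activators had a higher ratio at 300 µM. Summed activator FPKM was 10.9 times the sum of E2f7 and E2f8 at 300 µM and 1.35 times at 100 µM. E2f4, its relative E2f5 and E2f6, other repressors of the family, are not in that sum. E2f4 stood at 28.42 FPKM at 300 µM, against 40.33 at 100 µM, and E2f5 at 2.71 FPKM at 300 µM, against 8.15 at 100 µM. The level of E2f6 was 4.55 FPKM at 300 µM, against 18.13 at 100 µM. E2f1 alone stood at 10.6 times the sum of E2f7 and E2f8 at 300 µM and at 0.965 times that sum at 100 µM. These are ratios of messenger RNA levels, and protein was not measured.

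The pocket protein genes differed little between the doses. Rb1, which encodes RB itself, stood at 2.15 FPKM at 300 µM, against 1.69 at 100 µM, on about 191 and 146 reads. Its FPKM ratio was 1.27 with a counting interval of 1.02 to 1.59. Rbl1, which encodes p107, a pocket protein that is itself an E2F target, stood at 11.12 FPKM at 300 µM, against 10.25 at 100 µM. The FPKM ratio of Rbl1 was 1.08, with a counting interval of 0.992 to 1.19 that includes no difference. The log2 ratios of 0.23 for Rb1 and 0.11 for Rbl1 turned to -0.019 and -0.24 when the libraries were scaled to equal sums of FPKM, so no direction is given for either. Rbl1 outnumbered Rb1 in both libraries, 5.17 times at 300 µM and 6.07 times at 100 µM. Exons of Rcbtb2 and Lpar6, on the opposite strand, overlap annotated exons of Rb1, and 1.26% of the 50-base words of its representative transcript occur in another gene.

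The S-phase cyclins were lower at 300 µM, to unequal degrees. Of all genes compared, 5.79% had a lower log2 ratio than Ccne2, against 29.6% for Ccna2 and 34.1% for Ccne1. Ccne2 stood at 2.26 FPKM at 300 µM, against 14.75 at 100 µM, on about 129 and 821 reads. Its FPKM ratio was 0.153, with a counting interval of 0.126 to 0.184, and its log2 ratio was -2.27. Its paralogue Ccne1, whose product likewise activates CDK2 at the start of S phase, stood at 11.3 FPKM at 300 µM, against 21.09 at 100 µM. The FPKM ratio of Ccne1 was 0.536 (counting interval 0.475 to 0.603) and its log2 ratio -0.84, within 2-fold, although it was -1.20 at equal sums of FPKM. Ccne1 was thus 5.00 times as abundant as Ccne2 at 300 µM and 1.43 times at 100 µM, and its share of the cyclin E sum was 83.3% at 300 µM and 58.8% at 100 µM.

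Ccna2, the cyclin A of dividing somatic cells, which acts through S phase and into G2, stood at 22.17 FPKM at 300 µM, against 45.53 at 100 µM. It rests on about 1252 and 2500 reads, and its FPKM ratio was 0.487 with a counting interval of 0.455 to 0.521. Its log2 ratio of -1.01 lies at the edge of the 2-fold bound: it was -0.71 after centring on the median gene and -0.93 once the dependence on transcript length and GC content had been taken out, and -0.90 with a pseudocount of 5, all within 2-fold. Exons of Ccna2 and of Exosc9, on the opposite strand, share 510 bases, and Exosc9 stood at 19.52 FPKM at 300 µM, against 41.3 at 100 µM. Ccne2 overlaps Ints8 in the same way over 609 bases, and Ints8 stood at 9.72 FPKM at 300 µM, against 11.91 at 100 µM. Of the 50-base words of the transcripts, 15.9% in Ccna2 and 17.4% in Ccne2 occur in another gene. No source used here says whether reads were counted by strand, and the part of reads from those stretches in either ratio was not tested.

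The order of the 10 genes by FPKM changed with the dose. At 300 µM E2f1 came first, followed by Ccna2, Ccne1, Rbl1, E2f7, Ccne2, Rb1, E2f8, E2f3 and E2f2. Neighbours whose counting intervals overlapped there were Ccne1 with Rbl1, E2f7 with Ccne2, Ccne2 with Rb1, and E2f8 with E2f3. At 100 µM Ccna2 came first, followed by E2f1, Ccne1, Ccne2, E2f7, Rbl1, E2f8, E2f3, Rb1 and E2f2. Overlapping neighbours at 100 µM were E2f1 with Ccne1, and Rbl1 with E2f8. E2f1 lay above 87.8% of all 17215 listed genes at 300 µM and above 79.8% at 100 µM, whereas E2f8 lay above 43.5% of them at 300 µM and 66.1% at 100 µM.

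**Figure D2:**
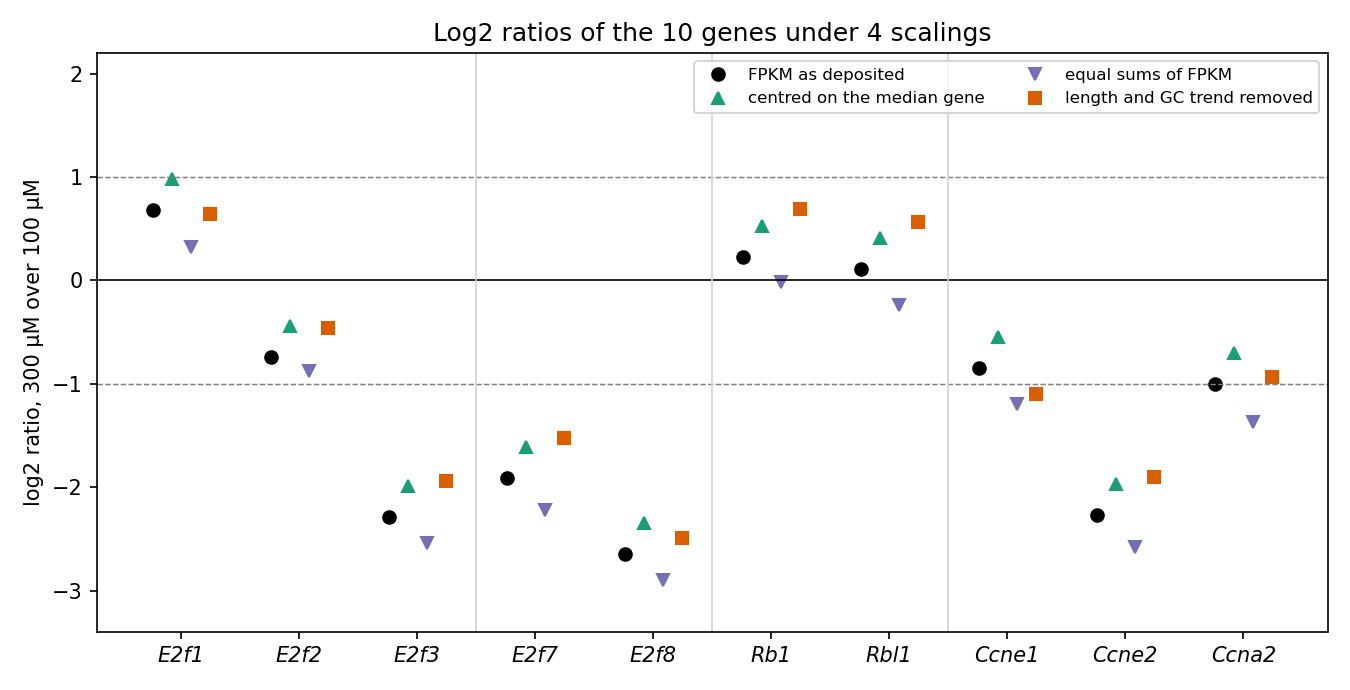
Log2 ratio, 300 µM over 100 µM, of each of the 10 genes on 4 scales: FPKM as deposited, centred on the median gene, equal sums of FPKM, and corrected for the trend in transcript length and GC content. Dashed lines mark 2-fold. E2f3, E2f7, E2f8 and Ccne2 lie beyond 2-fold on each of the 4 scales, E2f1 lies above 0 on each, and Rb1 and Rbl1 lie on both sides of 0.

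Transcript length moved with the ratios across the whole table. Compared genes were cut by length into 5 groups of nearly equal size. In the group with the shortest transcripts (267 to 1646 bases) the median log2 ratio was 0.46, and in the group with the longest (4764 bases and more) it was -0.99. Of the genes in the longest group 49.9% were at least 2-fold lower at 300 µM, against 10.5% in the shortest. The 10 genes have representative transcripts of 2000 to 5473 bases. Genes within 10% of the length of E2f8 (3691 bases) had a median of -0.55, and those near Ccne2 (3006 bases) one of -0.43, both closer to 0 than the -2.64 and -2.27 of E2f8 and Ccne2. Near E2f3 (5097 bases) and E2f7 (5473 bases) the medians were -0.80 and -0.94. The transcripts of Rb1 and Rbl1, at 4656 and 4862 bases, are longer than that of E2f8 and shorter than that of E2f7, and genes of similar length had medians of -0.75 and -0.76. With the trend in length and GC content removed, E2f3 had -1.94, E2f7 -1.53, E2f8 -2.49 and Ccne2 -1.91, while E2f1 had 0.64, Rb1 0.69 and Rbl1 0.57. On that scale Ccne1, with a shorter transcript of 2000 bases, was at -1.10 and so past 2-fold, in place of Ccna2.

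**Figure D3:**
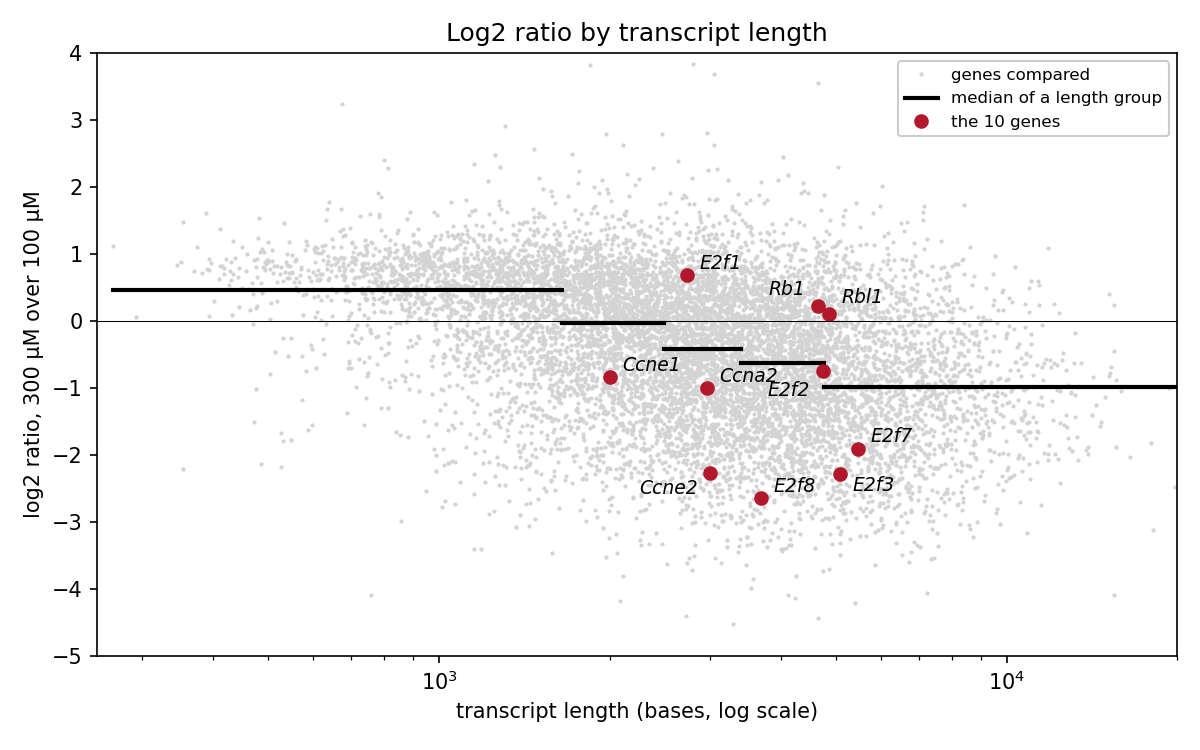
Log2 ratio, 300 µM over 100 µM, against transcript length in bases (log axis) for the genes compared (grey), with the 10 genes in red and the median of each of 5 length groups as a black line. The medians step down from 0.46 to -0.99 with length, and E2f3, E2f7, E2f8 and Ccne2 lie below the line at their length, while E2f1, Rb1 and Rbl1 lie above it. The axes show 10082 of 10093 genes.

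The DP partners of the E2Fs and the remaining pocket protein gene lay within 2-fold. In a list of 20 further genes of E2F, DP, pocket and DREAM complexes (DREAM being the repressor assembly of E2F, DP, a pocket protein and the MuvB proteins) 7 were lower by 2-fold or more and 0 higher, with a median log2 ratio of -0.45. That share of lower genes is near the 29.8% of all compared genes, so it does not set the list apart. The main DP gene, Tfdp1, stood at 53.71 FPKM at 300 µM, against 56.98 at 100 µM, while Tfdp2 stood at 1.84 FPKM at 300 µM, against 1.17 at 100 µM. Rbl2, which encodes p130, the pocket protein of resting cells, stood at 3.59 FPKM at 300 µM, against 4.20 at 100 µM. E2f4, a repressor that acts with pocket proteins in resting cells, stood at 28.42 FPKM at 300 µM, against 40.33 at 100 µM (log2 ratio -0.49). E2f6, a repressor that needs no pocket protein, stood at 4.55 FPKM at 300 µM, against 18.13 at 100 µM (log2 ratio -1.79), and E2f5, a relative of E2f4, at 2.71 FPKM at 300 µM, against 8.15 at 100 µM (log2 ratio -1.30). Of the 8 E2F genes, E2f2 included, E2f1 was thus the one with a positive log2 ratio, also after centring on the median gene. The lowest ratios of the list were those of the histone demethylase genes Kdm5b and Kdm5a (-2.34 and -1.51), of Mybl1, a MYB family factor (-1.99), and of E2f6. With the trend in length and GC content removed Kdm5a, with a transcript of 10944 bases, was at -0.64 and so within 2-fold. None of the 20 genes exceeded 0.41, and 5 had a ratio above 0, as did 4089 of all 10123 compared genes.

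Regulators of the kinases that cyclins E and A activate were examined next. Cdk2, the kinase partner of both cyclins, stood at 32.91 FPKM at 300 µM, against 30.81 at 100 µM. Of 23 genes compared in a list of 25, 9 were lower by 2-fold or more and 1 was higher, against 29.8% lower and 6.09% higher among all compared genes, and the median log2 ratio was -0.69, against -0.30 over all genes. Ccna1, the germ cell cyclin A, has no row in the tables and was not analysed here. Cdc25a, the phosphatase that activates CDK2, stood at 0.97 FPKM at 300 µM, against 12.93 at 100 µM (log2 ratio -2.82). Skp2, which marks the CDK inhibitor p27 for degradation, stood at 2.15 FPKM at 300 µM, against 17.22 at 100 µM (log2 ratio -2.53). Npat, a cyclin E-CDK2 substrate that drives histone genes, had a log2 ratio of -2.59, and Fbxo5 (Emi1), an inhibitor of the anaphase-promoting complex that protects cyclin A, had -2.41. Mnat1, an assembly factor of the CDK-activating kinase, was the gene in the other direction, at 19.23 FPKM at 300 µM, against 4.95 at 100 µM (log2 ratio 1.77). Genes that restrain these kinases or cyclin E were also among the 9 lower ones. They included Cdkn1a (p21), at 116.9 FPKM at 300 µM, against 604.34 at 100 µM (log2 ratio -2.36), Fbxw7 (-2.33) and Wee1 (-2.12). Cdkn1b (p27) and Pkmyt1, which also restrain these kinases, lay within 2-fold.

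Downstream, known E2F target genes lay on both sides of 0. Of 56 such genes, the 10 genes above left out, 12 were higher at 300 µM by 2-fold or more and 9 lower, against 6.09% higher and 29.8% lower among all compared genes. A log2 ratio above 0 was found for 37 of the 56, and for 4089 of all 10123 compared genes. Their median log2 ratio was 0.32, against -0.30 over all genes compared. With the libraries scaled to equal sums of FPKM, which shifts the ratios of all genes downward, it was -0.019, against -0.63 over all genes. On that scale 3 of the 56 were higher and 13 lower, against 2.34% higher and 38.6% lower among all genes. The highest were Prim2 and Pold1 (1.97 and 1.46), a primase and a polymerase delta subunit, with Pola2, a subunit of polymerase alpha, at 64.36 FPKM at 300 µM, against 24.34 at 100 µM, and Gins2, of the replicative helicase, at 78.55 FPKM at 300 µM, against 30.25 at 100 µM. The lowest were the mismatch repair gene Msh6, at 4.33 FPKM at 300 µM, against 34.52 at 100 µM, and Casp8ap2 (FLASH), a factor of histone messenger RNA, at 0.61 FPKM at 300 µM, against 9.22 at 100 µM, followed by Fen1 and Brca2 (-1.87 and -1.34). With the trend in length and GC content removed, 12 of the 56 were higher and 4 lower, against 5.24% higher and 26.7% lower among all genes, and the median was 0.40, against -0.32. Brca2, with a transcript of 10724 bases, was at -0.46 on that scale and so within 2-fold.

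**Figure D4:**
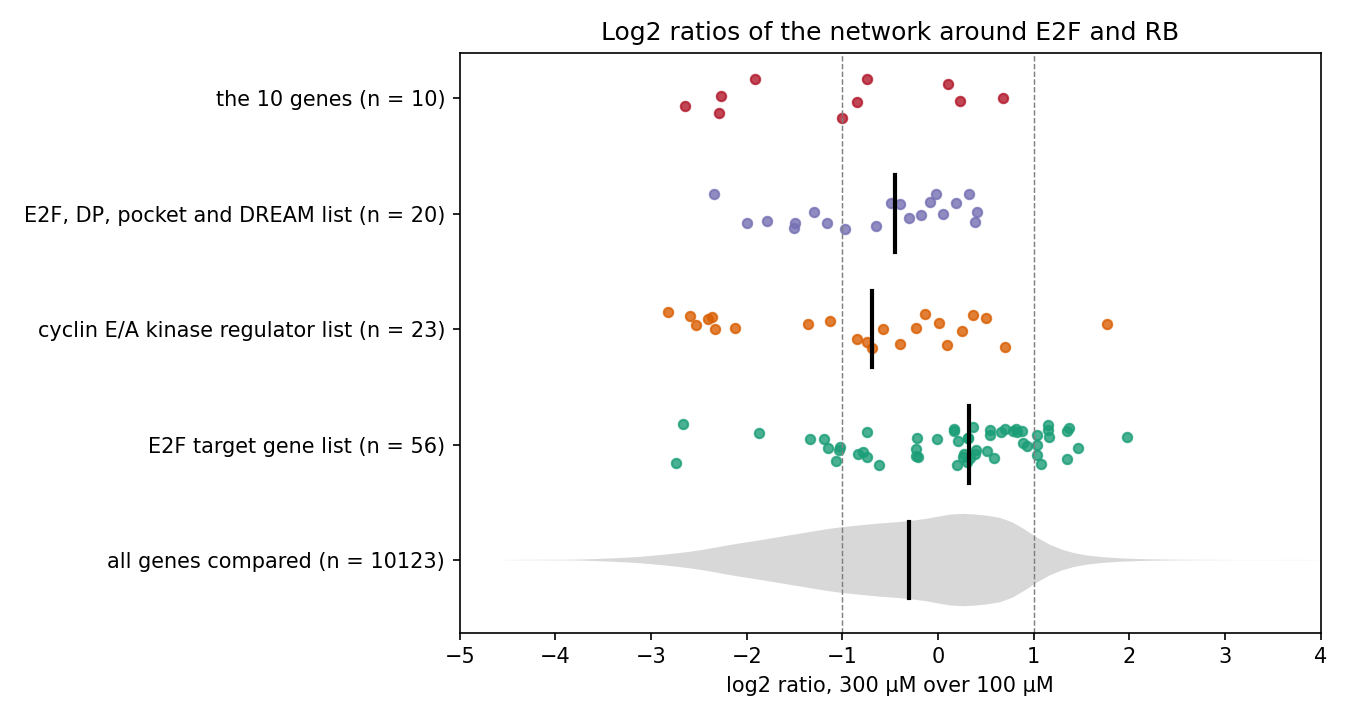
Log2 ratio, 300 µM over 100 µM, of the 10 genes and of 3 lists around them, 1 point per gene, above the distribution of all genes compared. Vertical bars mark the medians of the lists (-0.45, -0.69 and 0.32 from top to bottom) and of all genes (-0.30), and dashed lines mark 2-fold. The E2F target genes lie on both sides of 0, and their median turns to -0.019 at equal sums of FPKM, where that of all genes is -0.63, while the low tail of the kinase regulators reaches -2.82.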

How the data were processed

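RNA of 2 MC3T3-E1 cultures was sequenced, 1 library each at 300 µM and 100 µM formaldehyde. The authors deposited 1 gene table per library in FPKM, the unit in the deposited header. The submitters' processing notes name Bowtie2 and RSEM but no versions. The sources used here give no genome build, annotation or strand setting. FPKM is relative to each library, so a few abundant transcripts can lower all other values, and RSEM divides reads among isoforms.

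Symbols came from RefSeq (17179 genes) and GENCODE M21 (7 more), and 29 rows stayed unnamed. Transcript length and GC content, from GENCODE M21, were those of the coding transcript with the longest coding part, for 10093 of the 10123 genes whose mean reached 1 FPKM. Depth was read from genes with 1 annotated transcript of at most 1200 bases. The value of 1 read was the step that placed most low values of FPKM times length within 0.12 of a whole number: 67.5% of 83 values at 300 µM and 65.4% of 107 at 100 µM, against 15.7% and 16.8% at the median step tried. Reads of a gene were FPKM times length over that step, with exact Poisson intervals, and exact binomial (Clopper-Pearson) intervals for ratios. They cover counting error only, since PCR reads are not independent molecules. The ratio used a pseudocount of 1, which understates changes of low genes, and a bound of 2-fold. The ratios were also taken with pseudocounts of 0.1 and 5, without the filter, with the filter at 10 FPKM, after centring, at equal sums and after removal of a quadratic trend in log length and GC content. The calls and the depth step were tested on simulated data.

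The 10 genes and the lists were chosen with earlier results of these data known. Genes of a list are named if fixed by name (E2f4, E2f5, E2f6, Rbl2, Tfdp1, Tfdp2, Ccna1 and Cdk2) or if among the 4 largest or 4 smallest log2 ratios past 2-fold. Cdkn1a, Cdkn1b, Fbxw7, Wee1 and Pkmyt1 are named besides, as genes that restrain the kinases or cyclin E. Python 3.11.15 was used with scipy 1.17.1, numpy 2.4.6 and pandas 2.3.3.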

Additional observations from a re-analysis of the deposited data

How the results depend on the processing

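No paired analysis was possible because each dose has 1 library. Of 59 log2 ratios of the 10 genes under 7 alternatives, 57 kept the sign of the main setting. The exceptions were Rb1 and Rbl1 at equal sums of FPKM (-0.019 and -0.24). Another pseudocount or filter cannot turn the sign of a ratio. Only centring, equal sums and removal of the trend could have done so, so the count of kept signs says little. E2f3, E2f7, E2f8 and Ccne2 were at least 2-fold lower in each of the 7 settings that compared them, with log2 ratios that moved with the pseudocount of 0.1 or 5: -3.17 and -1.13 for E2f3, -2.23 and -1.20 for E2f7, -3.55 and -1.39 for E2f8, and -2.65 and -1.44 for Ccne2. Of the 9 genes compared (10 without the filter), 4 to 6 were lower under 6 alternatives; at a mean of at least 10 FPKM only 4 genes were compared and 1 (Ccna2) was lower, since E2f3, E2f7, E2f8 and Ccne2 have means below that filter.

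With the filter at 10 FPKM, 358 of 5340 genes were higher and 1141 lower in all. The lower counts there were 1 of 9 in the E2F, DP, pocket and DREAM list, 2 of 15 kinase regulators and 3 of 44 E2F targets. With a pseudocount of 5, 258 genes were higher and 1630 lower in all, 3 genes of the E2F, DP, pocket and DREAM list were lower, and 7 E2F targets were higher and 3 lower. After centring on the median gene 1472 genes were higher and 2261 lower in all, and 18 E2F targets were higher and 4 lower (median 0.62). At equal sums of FPKM 237 genes were higher and 3906 lower in all, as were 3 and 13 of the E2F targets (median -0.019). With the length and GC trend removed 4 E2F targets were lower. The change with the scaling follows from its construction, a shift of all ratios, and the cause of the others was not tested. At about 20 reads, E2f2 at 300 µM is the value most limited by depth. The shortest annotated transcript would give E2f7 40 reads at 300 µM in place of 265, with an interval of 0.143 to 0.292 for its FPKM ratio, and Ccne1 131 in place of 430, with an interval of 0.431 to 0.668. With a pseudocount of 5, the log2 difference between the doses in the ratio of Ccne1 to Ccne2 was 0.77 in place of 1.81, in that of E2f7 to E2f8 0.19 in place of 1.43, and in that of E2f1 to the sum of E2f7 and E2f8 2.32 in place of 3.46.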

Other observations

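Beyond the network itself, 422 compared genes other than the 10 hold one of the E2F letters in a RefSeq promoter window. Of these, 31.8% were lower at 300 µM by 2-fold or more and 6.87% higher, with a median log2 ratio of -0.41. Of 7810 compared genes with a window but without those letters, 29.7% were lower and 6.02% higher, with a median of -0.30. With the trend in length and GC content removed the medians were -0.34 and -0.31.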
